A study of Mus musculus with 36 samples.

Results

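The genes of glycogen synthesis and breakdown were followed in the livers of 36 male C57BL/6 mice (C57BL/6J in the study's methods), with 3 mice at each of 12 ages. The members were the 9 genes whose symbols are Gys1, Gys2, Gyg, Gbe1, Ugp2, Pygl, Pygb, Ppp1r3b and Ppp1r3c, and all 9 had a row among the 21889 gene symbols measured. The ages were late gestation (GD17.5, given as day -2 in the sample labels), Day 0 (just after birth, before the first milk), Days 1, 3, 5, 10, 15 and 20 (suckling) and Days 25, 30, 45 and 60 (after weaning at 21 days of age). No mouse carried a transgene or received a treatment. The Day 0 pups had not fed and were taken at birth, Day 1 pups a full day after birth and older mice at a fixed morning hour, so feeding state and hour of collection cannot be told apart from age at these steps. Each mouse was a separate animal taken from one of several litters. RNA abundance was given as FPKM, a count of sequenced fragments scaled to the length of a gene's exons and to the mapped reads of the library. The summed FPKM ranged from 353712 to 450597 per library.

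The liver stores glucose as glycogen, a branched polymer of glucose units. Glycogenin starts each chain on itself, glycogen synthase lengthens the chain with glucose carried by UDP, and the branching enzyme adds branch points. Glycogen phosphorylase takes glucose units off again as glucose 1-phosphate, and targeting subunits bring protein phosphatase 1 to the particle, where it switches the synthase on and the phosphorylase off. The fetal liver fills with glycogen before birth and draws on it in the first hours of life, before milk provides energy.

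The tissue label held in all libraries: the 6 hepatocyte markers (Alb, Ttr, Hnf4a, Cps1, Apob and Tat) summed to 5043 FPKM on average at GD17.5, to 29696 FPKM just after birth and to 35333 FPKM in the Day 60 adults, with Alb, the gene of serum albumin, as the most abundant. Several libraries stood apart from the others of their age. In Day 0 mouse 1 all 8 skeletal muscle markers exceeded 1 FPKM and they summed to 1176 FPKM, led by Acta1, the actin of skeletal muscle, at 636 FPKM. The same sum was 4.37 and 4.10 FPKM in the other Day 0 mice. Day 10 mouse 1 had a smaller sum of 78.4 FPKM. The 4 exocrine pancreas markers (Cela1, Ctrb1, Cpa1 and Pnlip), led by Ctrb1, a chymotrypsinogen, summed to over 1000 FPKM in 5 other libraries. The sum was 11581 FPKM in Day 60 mouse 1, of the adult reference, where the other Day 60 mice had 4.50 and 4.29 FPKM. It was 3836 FPKM in Day 20 mouse 2 (3.53 and 5.55 FPKM in the others), 2775 FPKM in Day 45 mouse 1 (8.91 and 9.76 FPKM), 2659 FPKM in Day 15 mouse 3 (286 and 226 FPKM) and 3591 FPKM in Day 0 mouse 3 (631 and 382 FPKM). Lower sums were frequent in young mice, with Day 1 mice between 127 and 789 FPKM, Day 3 mice between 359 and 847 FPKM, Day 5 mice between 7.61 and 737 FPKM and Day 10 mice between 4.58 and 845 FPKM, while the GD17.5 mice had 6.02 to 6.94 FPKM. Leaving out the highest 5 therefore does not leave a set free of pancreas transcripts. The counts below are therefore also given without Day 0 mouse 1 and without these 5 libraries, both chosen after seeing the data, where a call changed.

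All 9 genes were detected in every mouse and passed the filter for testing, by which the 3 mice of some age had to average 1 FPKM or more. Differences are in units of log2(FPKM + 1), in which changes of low genes come out too small, and were tested with limma over all 11149 genes that passed, with Benjamini-Hochberg adjustment and a threshold of 0.05. With Day 60 as the adult reference, 8 of the 9 differed in at least 1 of the other 11 ages (adjusted over all genes and comparisons together), and Ppp1r3c did not (smallest adjusted p = 0.121). This count says little about glycogen genes in particular, since 90.7% of all genes tested met the same criterion. What set the members apart from each other was the age and direction. Gys1, Gys2, Gyg and Pygb differed from Day 60 only by being higher, in 7, 7, 9 and 8 ages, whereas Gbe1, Ppp1r3b, Ugp2 and Pygl differed only by being lower, in 8, 5, 2 and 2 ages. Directions were the same after libraries were scaled to a common upper quartile of FPKM, but Pygl was then lower in 5 ages, Ugp2 in 4, Ppp1r3b in 6 and Ppp1r3c in 2, while Gyg was higher in 10 and Gys2 in 6. Without the 5 libraries highest in pancreas transcripts Gys1 and Gys2 were higher in 6 ages, Gyg in 8 and Pygb in 8, and Gbe1 was lower in 7, Ppp1r3b in 5, Pygl in 2 and Ugp2 in 1. Without Day 0 mouse 1 Ppp1r3b was lower in 6 ages and Ppp1r3c in 1.

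Read age by age in the deposited values of all mice, no more than 4 glycogen genes were called in either direction. At GD17.5, 3 members were higher and 4 lower, against 54.5% and 17.9% of all genes. At Day 0 it was 4 and 2 (42% and 19.2%), at Day 1 4 and 3 (51.2% and 10.9%), at Day 3 4 and 2 (53.6% and 9.52%) and at Day 5 4 and 2 (54.7% and 8.06%). With only 9 members such shares are coarse. At Day 10, 4 were higher and 2 lower (34.8% and 10.3%), at Day 15 4 and 1 (20.3% and 9.77%) and at Day 20 3 and 1 (11.8% and 8.75%). Gyg alone was called at Day 25, as higher (6.91% higher and 6.32% lower over all genes). No member was called at Day 30 (4.4% and 6.46%) or Day 45 (0.574% and 2.91%). With adjustment within each comparison limma no longer called Gyg at Day 25 (adjusted p = 0.0792) or Gys2 at Day 20 (adjusted p = 0.0535). It then called Ppp1r3b lower at Day 0 (adjusted p = 0.0419). The balance depended on the scaling. Scaled to the upper quartile, 3 members were higher and 5 lower at GD17.5 (38.8% and 27.8% of all genes), and 4 were higher and 5 lower at Day 1 (35% and 20.6%). With that scaling Gyg was also called higher at Day 30 (8.1% and 5.31%). Without Day 0 mouse 1 the Day 0 counts stayed at 4 and 2 (39.9% and 18.7% of all genes). Ppp1r3c was then also lower at GD17.5 (3 higher and 5 lower, against 54.8% and 18% of all genes). Ppp1r3b was also lower at Day 30 (0 and 1, against 4.71% and 6.68%). Without the 5 libraries highest in pancreas transcripts the Day 0 counts were 3 and 0 (35.9% and 16.1% of all genes). Gys2, Gbe1 and Ugp2 were no longer called at Day 0. The counts higher were then 3 at Day 15 (14.6% of all genes) and 0 at Day 25 (4.5%), since Gys1 and Gyg were no longer called there. The shares of all genes called also fell without these libraries.

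**Figure D1:**
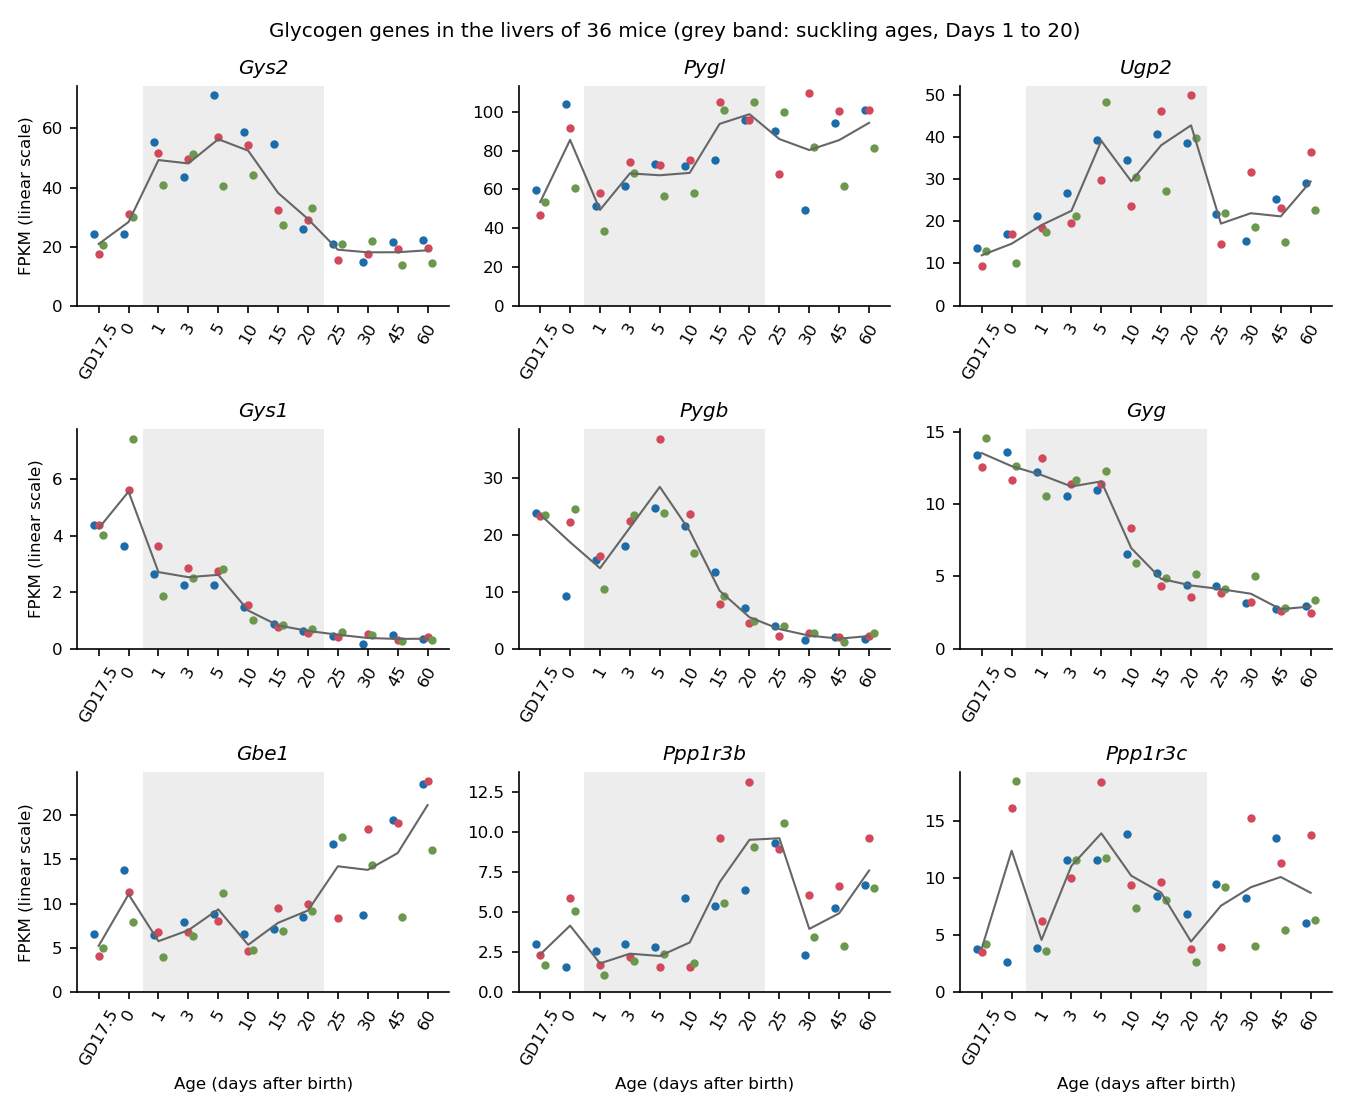
FPKM (linear axis from 0) of the 9 glycogen genes at each of the 12 ages. Points are single mice (blue, red and green for mouse 1, 2 and 3), the line joins the means of 3 mice and the grey band marks Days 1 to 20. Gys2 peaks inside the band, Gys1, Pygb and Gyg are low after it, and Gbe1 is highest at Day 60.

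Among the genes that build the polymer, Gys2 encodes the glycogen synthase of liver (ENSMUSG00000030244, chromosome 6, 142371133 to 142421629 on the minus strand of NCBIM37). Gys2 measured 24.4, 17.6 and 20.6 FPKM in the mice at GD17.5, 24.1, 30.9 and 29.9 FPKM on the day of birth and 55.3, 51.8 and 40.8 FPKM at Day 1. The Day 1 mice were all above the Day 0 mice, and the highest age mean was 56.4 ± 15.5 FPKM at Day 5 (SD, n = 3). At Day 20 the mice had 26.01, 28.9 and 33.2 FPKM, at Day 25 20.7, 15.3 and 20.8 FPKM, and at Day 60 22.3, 19.6 and 14.3 FPKM. Over the 18 suckling mice Gys2 ranged from 26.01 to 71.5 FPKM with a median of 47.0, and over the 12 mice after weaning from 13.6 to 22.3 FPKM with a median of 19.4, so the sets of mice did not overlap. In all 11 steps down the order of age means, however, the mice of neighbouring ages overlapped.

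Gys1, the synthase found in muscle and most other tissues (ENSMUSG00000003865, chromosome 7, 52690214 to 52711989, plus strand), followed another course. It measured 4.38, 4.35 and 4.03 FPKM at GD17.5 and 3.64, 5.62 and 7.39 FPKM at Day 0. By Day 1 it was at 2.63, 3.65 and 1.85 FPKM, and at Day 60 at 0.349, 0.402 and 0.317 FPKM. The highest age mean was 15.9 times the lowest, against 3.12 times for Gys2. About 63 fragments stood behind the lowest Gys1 value, 0.164 FPKM in Day 30 mouse 1, which alone gives a counting error of 12.5%. Its exons also share 310 bases (6.47% of their length) with those of Ruvbl2 on the other strand, and since the library kit does not mark strand, reads there cannot be told apart.

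Gyg, which encodes glycogenin, the primer of the chain (ENSMUSG00000019528, chromosome 3, 20021970 to 20055216, minus strand), was highest before birth. Gyg had 13.4, 12.6 and 14.6 FPKM at GD17.5 and stayed between 10.6 and 14.6 FPKM in all 15 mice up to Day 5. At Day 10 it was at 6.55, 8.38 and 5.95 FPKM, below every earlier mouse, and at Day 60 at 2.97, 2.46 and 3.34 FPKM. Gyg was called higher than at Day 60 up to Day 25 (log2 difference 0.39, 9 of 11 ages called), and up to Day 20, as Gys2 and Pygb were, without the 5 libraries highest in pancreas transcripts.

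Gbe1, the branching enzyme (ENSMUSG00000022707, chromosome 16, 70314194 to 70569961, plus strand), ran the other way. Gbe1 measured 6.58, 4.10 and 4.97 FPKM at GD17.5 and 13.8, 11.4 and 7.97 FPKM at Day 0, with no overlap between these ages. It was back at 6.44, 6.79 and 4.01 FPKM at Day 1 and reached 23.5, 23.8 and 16.03 FPKM at Day 60, the highest age. Each age from GD17.5 to Day 20 was lower than Day 60. The mice of Days 25, 30 and 45 spread widely, as at Day 45 with 19.4, 19.1 and 8.53 FPKM.

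Ugp2 encodes the pyrophosphorylase that makes UDP-glucose, the donor used by the synthase (ENSMUSG00000001891, chromosome 11, 21221141 to 21271204, minus strand). Ugp2 had its lowest age mean before birth, with 13.5, 9.43 and 12.8 FPKM at GD17.5. Its highest was at Day 20, with 38.6, 50.05 and 39.6 FPKM, the 50.05 FPKM in mouse 2, a library high in pancreas transcripts. Day 5 came next and overlapped Day 20, with 39.3, 29.7 and 48.2 FPKM. At Day 25 the mice had 21.7, 14.6 and 22.03 FPKM, all below the Day 20 mice. At Day 60 they had 29.1, 36.4 and 22.7 FPKM, and in the test only GD17.5 and Day 0 were lower than Day 60. With the upper quartile Day 1 (-1.04, adjusted p = 0.000919) and Day 3 (-0.96, adjusted p = 0.00208) were lower too, and without the 5 libraries highest in pancreas transcripts GD17.5 alone.

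Among the genes of breakdown, Pygl encodes the phosphorylase of liver (ENSMUSG00000021069, chromosome 12, 71291798 to 71332475, minus strand) and was the most abundant of the 9 in every age mean, at Day 1 level with Gys2 (means of 49.4 and 49.3 FPKM). Pygl measured 59.9, 46.9 and 53.5 FPKM at GD17.5 and 104, 91.8 and 60.8 FPKM at Day 0, without overlap. At Day 1 it was at 51.6, 58.2 and 38.5 FPKM, again without overlap with Day 0, and at Day 60 at 101, 101 and 81.2 FPKM. Its range over ages was the narrowest of the 9, with the highest age mean 2.00 times the lowest.

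Pygb encodes the phosphorylase first known from brain (ENSMUSG00000033059, chromosome 2, 150612471 to 150657494, plus strand). Pygb had 23.8, 23.2 and 23.5 FPKM at GD17.5 and 24.6, 36.7 and 23.9 FPKM at Day 5. It then came down to 7.22, 4.57 and 4.83 FPKM at Day 20 and 1.77, 2.16 and 2.76 FPKM at Day 60. From the highest to the lowest age mean the factor was 15.9, as for Gys1.

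Of the targeting subunits, Ppp1r3b is the one first described in liver (ENSMUSG00000046794, chromosome 8, 36438795 to 36451178, plus strand). Ppp1r3b had 3.02, 2.34 and 1.69 FPKM at GD17.5 and 2.55, 1.72 and 1.09 FPKM at Day 1. The 2 highest age means were at Day 20, with 6.37, 13.1 and 9.05 FPKM, and Day 25, with 9.31, 8.95 and 10.6 FPKM. Neither age was called different from Day 60 (log2 differences 0.26 and 0.32), where the mice had 6.66, 9.63 and 6.49 FPKM. The 13.1 FPKM was in Day 20 mouse 2, 1 of the 5 libraries highest in pancreas transcripts. Without these libraries the Day 20 difference was -0.05. In the test Ppp1r3b was lower than at Day 60 at GD17.5 and at Days 1, 3, 5 and 10.

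Ppp1r3c, a targeting subunit found in many tissues (ENSMUSG00000067279, chromosome 19, 36806227 to 36811143, minus strand), varied most between mice of the same age, with a median coefficient of variation of 36.9%. At Day 60 its mice had 6.05, 13.8 and 6.27 FPKM and at Day 30 8.25, 15.2 and 4.04 FPKM. No age was called different from Day 60 in the deposited values, where the log2 difference at GD17.5 was -0.92. This difference was called when Day 0 mouse 1 was left out of the fit (adjusted p = 0.0454). With the upper quartile GD17.5 (-1.41, adjusted p = 0.0134) and Day 1 (-1.15, adjusted p = 0.0445) were called lower.

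**Figure D2:**
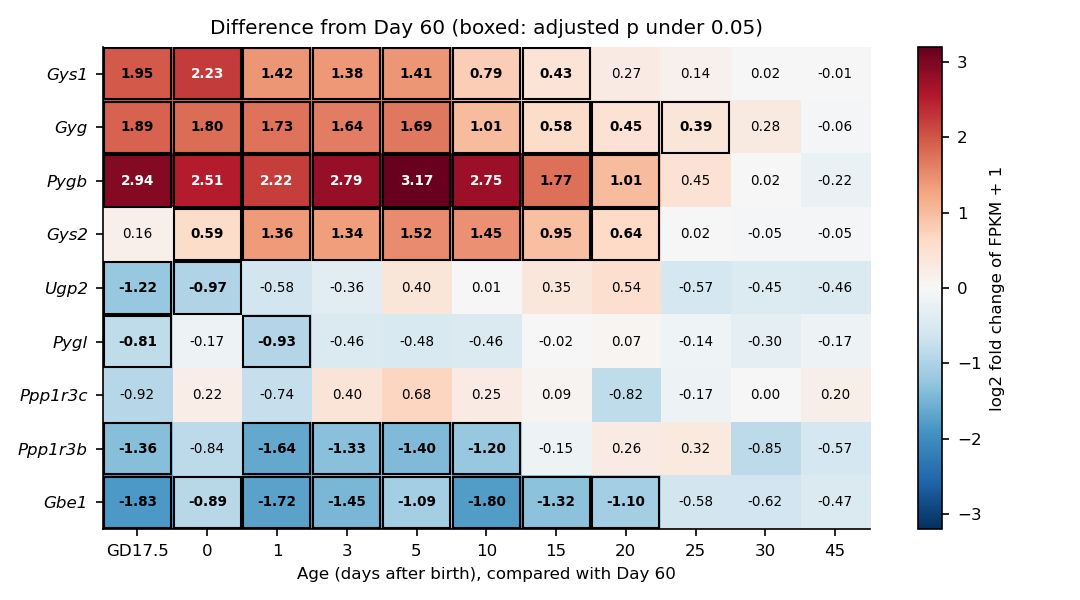
log2 fold change of FPKM + 1 at each age against Day 60 for the 9 genes (limma, 3 mice per age). Red is higher and blue lower than Day 60, and boxed values have an adjusted p under 0.05 over all genes and comparisons. The upper 4 rows are red through Day 20. Gbe1 is blue at all ages and boxed through Day 20, and Ppp1r3b is blue through Day 15 and at Days 30 and 45.

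Because FPKM is per length, the isozymes of each step can be set side by side. Gys2 made up 82.9% ± 2.41 of the summed FPKM of both synthases at GD17.5 (SD, n = 3) and 83.9% ± 3.41 at Day 0. At Day 1 it was 94.8% ± 1.24, with all 3 mice above those of the earlier ages, and at Day 60 98.1% ± 0.330. The phosphorylases changed over later. Pygl made up 69.3% ± 2.33 of Pygl and Pygb before birth (GD17.5). The Day 1 mice, with 77.8% ± 0.934, were all above the GD17.5 mice. The share did not rise steadily from there, with 76.3% ± 1.56 on Day 3, 70.5% ± 4.23 on Day 5 and 76.9% ± 0.775 by Day 10. It was 89.8% ± 4.47 by Day 15, 94.7% ± 1.47 by Day 20 and 97.6% ± 0.817 in the Day 60 mice. All mice of Day 15 and later were above all mice of Days 1 to 10. At Day 0 the share was 91.8, 80.4 and 71.3% in mice 1, 2 and 3, the widest spread of any age. Mouse 1 is the library with skeletal muscle transcripts, and mouse 3 is among the 5 highest in pancreas transcripts. Pygm, the muscle phosphorylase left out of this share, made up 16.7, 1.57 and 2.43% of all 3 phosphorylases in these mice. The ratio of Gys2 to Pygl, liver synthase to liver phosphorylase, had a mean of 0.354 at Day 0 (0.232, 0.337 and 0.492 in the mice) and 1.01 at Day 1 (1.07, 0.890 and 1.06), and it was 0.296 at Day 20 and 0.197 at Day 60. These shares and ratios are descriptions of RNA levels and were not tested.

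**Figure D3:**
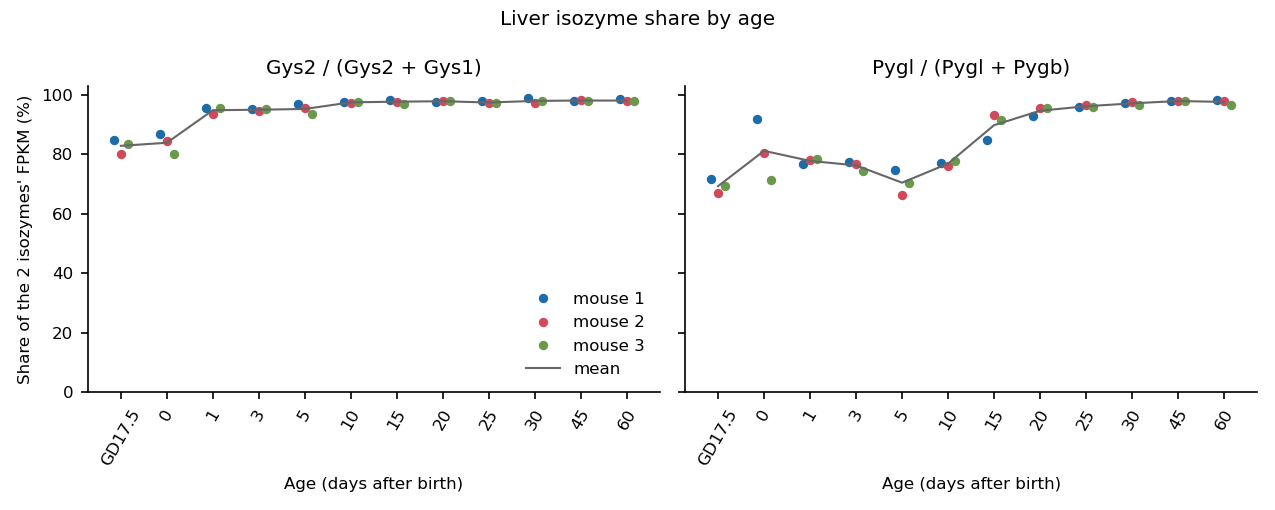
Share of the liver isozyme in the summed FPKM of the pair (percent, axis from 0), Gys2 of both synthases on the left and Pygl of Pygl and Pygb on the right, by age. Points are single mice and the line joins means of 3. The synthase share is at 94.8% by Day 1 and the phosphorylase share at 89.8% by Day 15.

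Mouse 1 of Day 15 lay closer to the Day 10 mice than its fellows did. It had 54.7 FPKM of Gys2 beside 32.5 and 27.4 FPKM, 75.1 FPKM of Pygl beside 105 and 101 FPKM, and 13.5 FPKM of Pygb beside 7.82 and 9.22 FPKM. Its 6 neutrophil and myeloid precursor markers summed to 91.5 FPKM, beside 30.9 and 25.4 FPKM, and the part of these cells in its values was not tested.

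Gys1, Gyg and Pygb all had their lowest age mean at Day 45, but their highest at Day 0, GD17.5 and Day 5. From Day 0 to Day 1 their log2 differences were -0.81, -0.07 and -0.29. Pearson's r on the log2(FPKM + 1) scale was 0.96 for Gyg and Gys1, 0.92 for Gyg and Pygb and 0.86 for Gys1 and Pygb. With Gys2 it was 0.77 for Pygb, 0.60 for Gyg and 0.45 for Gys1, and for Pygl and Pygb it was -0.61. Blood cell markers fell over the same ages. The 5 erythroid markers (Alas2, Klf1, Slc4a1, Epor and Hemgn) summed to 3009 FPKM at GD17.5, 622 FPKM at Day 5 and 69.8 FPKM at Day 60, and the 6 neutrophil and myeloid precursor markers to 2559, 1880 and 1.86 FPKM. Their part in the fall of Gys1, Gyg and Pygb was not tested, and in whole liver fewer cells of a type and less RNA per cell cannot be told apart. These correlations rest on means from the same libraries and are given without a test.

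The promoters of these 3 genes and of Pygl, the liver counterpart of Pygb, are shown because of the correlations given above. The sequences are the 250 bases before the gene start in RefSeq on GRCm38.p6, a later build than that of the gene positions above, and 7 of the 9 members had an entry, Gys2 and Ppp1r3b not being among them. Capitals mark GC boxes (GGGCGG, or CCGCCC on the other strand) and cyclic AMP response half-sites (TGACG, or CGTCA on the other strand), and no marked motif overlaps another. Pygl lies on the minus strand (chr12:70227684-70227933), Pygb on the plus strand (chr2:150786546-150786795), Gys1 on the plus strand (chr7:45434589-45434838) and Gyg on the minus strand (chr3:20155117-20155366).
Pygl: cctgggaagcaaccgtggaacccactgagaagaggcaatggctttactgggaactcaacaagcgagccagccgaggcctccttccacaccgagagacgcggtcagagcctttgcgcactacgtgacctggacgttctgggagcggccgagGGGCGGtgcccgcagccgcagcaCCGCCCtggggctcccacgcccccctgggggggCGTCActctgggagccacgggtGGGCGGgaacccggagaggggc
Pygb: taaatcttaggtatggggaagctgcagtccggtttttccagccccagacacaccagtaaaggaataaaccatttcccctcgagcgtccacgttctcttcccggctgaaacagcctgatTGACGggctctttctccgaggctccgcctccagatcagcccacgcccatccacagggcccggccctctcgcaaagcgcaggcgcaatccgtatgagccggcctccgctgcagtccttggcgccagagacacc
Gys1: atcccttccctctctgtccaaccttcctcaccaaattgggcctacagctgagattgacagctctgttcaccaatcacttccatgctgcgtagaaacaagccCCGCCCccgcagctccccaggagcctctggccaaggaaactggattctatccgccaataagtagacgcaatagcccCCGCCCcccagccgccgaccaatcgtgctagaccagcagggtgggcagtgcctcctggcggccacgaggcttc
Gyg: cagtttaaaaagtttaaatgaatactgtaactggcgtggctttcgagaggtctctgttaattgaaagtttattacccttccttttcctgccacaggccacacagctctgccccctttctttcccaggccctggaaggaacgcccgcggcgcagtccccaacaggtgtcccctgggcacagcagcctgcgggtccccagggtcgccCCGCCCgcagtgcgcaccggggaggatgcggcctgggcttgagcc
Among the 7 members with a promoter, the half-site was found in Pygl and Pygb alone, starting 44 and 132 bases before the gene start, while 17.8% of 32851 promoters of the same length hold it. GC boxes numbered 3 in Pygl, 2 in Gys1, 1 in Gyg, 2 and 1 in the 2 entries of Ugp2, and 0 in Pygb, Gbe1 and Ppp1r3c, and 32.7% of all promoters hold at least 1. Of the 3 correlated genes, Gys1 and Gyg thus hold a GC box and Pygb none. The E-box CACGTG was found only in Ppp1r3c (6.02% of promoters) and the TATA box TATAAA in none of the 7 (12.4%). A match to letters is not a bound site.

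Suckling ages were compared with ages after weaning (mean of Days 1 to 20 minus mean of Days 25 to 60). Diet cannot be told apart from age in this comparison. The blood cell markers given above also fell over these ages, and their part was not tested. Of the 9 genes, 5 were higher in suckling (Gys1, Gys2, Gyg, Ugp2 and Pygb), 2 were lower (Gbe1 and Ppp1r3b) and 2 were not called (Pygl and Ppp1r3c). Over all genes tested 79.7% were called, 68.1% higher and 11.7% lower, so a rise in suckling was the usual course in these FPKM values. The median log2 difference of all genes was 0.39, and it was 0.13 with the common upper quartile, with which 45.3% of all genes were higher and 25.8% lower. Of the 9 genes 4 were then higher, 3 lower and 2 not called.

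Pygb differed most, by 2.22 (SE 0.12, adjusted p = 7.82e-16), which is 1.83 above the median of all genes. Its 18 suckling mice ranged from 4.57 to 36.7 FPKM (median 16.5) and the 12 mice after weaning from 1.24 to 4.08 FPKM (median 2.25), without overlap. Gys2 was higher by 1.23 (SE 0.10, adjusted p = 9.34e-12), 0.84 above that median, and its mice did not overlap either. Gyg was higher by 1.03 (SE 0.06, adjusted p = 4.45e-15) and Gys1 by 0.91 (SE 0.07, adjusted p = 2.6e-12), and in both the sets of mice overlapped at the edge, for Gyg at 3.57 FPKM in the lowest suckling mouse and 5.04 FPKM in the highest mouse after weaning. These 4 genes kept their direction and call with the upper quartile.

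Gbe1 was lower in suckling (-0.996, SE 0.13, adjusted p = 5.28e-08). Its suckling mice ranged from 4.01 to 11.2 FPKM (median 6.97) and the others from 8.42 to 23.8 FPKM (median 17.1). Ppp1r3b was lower by 0.64 (-0.64, SE 0.16, adjusted p = 0.000921), with broad overlap, since its suckling mice reached 13.1 FPKM. With the upper quartile both differences were larger, -1.37 and -0.94.

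Ugp2 and Pygl depended on the scaling. Ugp2 was higher by 0.43 (SE 0.12, adjusted p = 0.00153) in the deposited values, only 0.05 above the median of all genes, and by 0.04 with the upper quartile (adjusted p = 0.784). Pygl was lower by 0.23 (-0.23, SE 0.11, adjusted p = 0.0501), just outside the threshold. It was inside the threshold in 13 of the 36 fits that left out 1 mouse, among them that without Day 0 mouse 1 (adjusted p = 0.0465). It was called with a sum of 1000000 per library (-0.29, adjusted p = 0.01995), and was lower by 0.64 with the upper quartile (-0.64, adjusted p = 6.11e-07). Ppp1r3c differed by -0.03 (SE 0.21, adjusted p = 0.895), with a 95% confidence interval from -0.47 to 0.40.

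**Figure D4:**
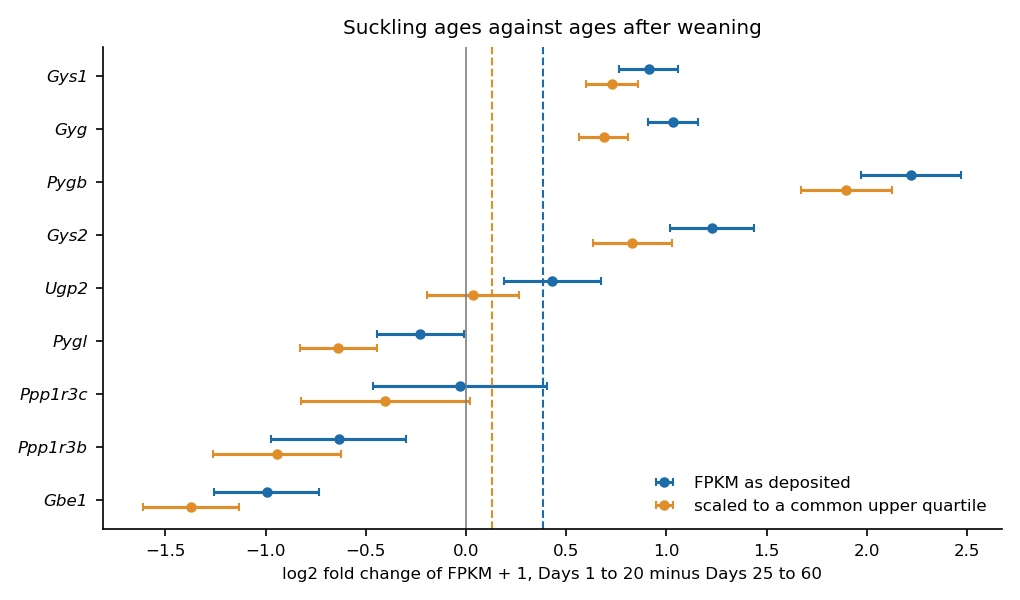
log2 fold change of FPKM + 1 for Days 1 to 20 minus Days 25 to 60 (18 and 12 mice), with 95% confidence intervals, for deposited FPKM (blue) and after scaling to a common upper quartile (orange). Dashed lines are the medians of all genes tested, 0.39 and 0.13. Gys1, Gyg, Pygb and Gys2 lie to the right of both lines, Gbe1 and Ppp1r3b to the left of 0, and Ugp2 lies near the medians.

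The other genes of the pathway were taken from a list of 32, of which 23 passed the filter. In suckling 21 were higher and the other 2, Phkb and Phkg2 of phosphorylase kinase, were not called, beside 68.1% of all genes higher and 11.7% lower. With the upper quartile 14 were higher, 3 lower (Pgm2, Phkb and Phkg2) and 6 not called, beside 45.3% and 25.8% of all genes. The largest difference was in Hk1, a hexokinase of many tissues that phosphorylates glucose (2.02, SE 0.09, adjusted p = 3.46e-18). Hk1 had a median of 9.87 FPKM in the 18 suckling mice (1.42 to 30.8 FPKM) and 1.12 FPKM in the 12 mice after weaning (0.643 to 1.52 FPKM). Among the others, Ppp1cc, a catalytic subunit of protein phosphatase 1, was higher by 0.80, G6pc3, a widely expressed glucose 6-phosphatase, by 0.79, and Inpp5k, an inositol phosphatase, by 0.79. Pygm, the muscle phosphorylase, was higher by 0.72, Phka2, the liver alpha subunit of phosphorylase kinase, by 0.60, and Gaa, the glucosidase that digests glycogen in lysosomes, by 0.30, where the upper quartile gave -0.09. Hk2, Phka1, Phkg1, Ppp1r3a, Ppp1r3d, Ppp1r3e, Ppp1r3f, Epm2a and Nhlrc1 had low values and were not tested.

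Birth, when the supply of glucose from the mother ends, was examined as Day 0 against GD17.5. This step also spans the end of gestation, which cannot be told apart from birth here. Gbe1, Pygl and Ppp1r3c rose and no member fell, while over all genes 54.6% were called, 13.1% higher and 41.4% lower, with a median of -0.29. The shares higher and lower were 20% and 26.1%, with a median of -0.08, after scaling to the upper quartile. Cell type markers moved over the same step, and their part was not tested. The hepatocyte sum went from 5043 to 29696 FPKM. It mainly followed 1 gene, Alb, with 3073, 3861 and 2883 FPKM at GD17.5 and 29577, 27582 and 19857 FPKM at Day 0. The erythroid sum went from 3009 FPKM to 1421 FPKM (1132, 1469 and 1663 FPKM in the mice) and the neutrophil and myeloid precursor sum from 2559 to 3720 FPKM. Gbe1 rose by 0.94 (SE 0.28, adjusted p = 0.00633), which is 1.23 above that median, and Pygl by 0.64 (SE 0.23, adjusted p = 0.0217), 0.93 above it. The Gbe1 call held when each mouse was left out in turn. The Pygl call was lost without GD17.5 mouse 2, Day 0 mouse 1 or Day 0 mouse 2 (0.55, 0.48 and 0.57). Gys1 and Gys2, not called here (0.28 and 0.43), were called higher with the upper quartile (0.49 and 0.68).

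Ppp1r3c had 3.77, 3.51 and 4.18 FPKM at GD17.5 and 2.59, 16.1 and 18.4 FPKM at Day 0, and its rise of 1.14 (SE 0.47, adjusted p = 0.0399) came from Day 0 mice 2 and 3. The call was lost without Day 0 mouse 2 (0.80) or mouse 3 (0.70), where the difference shrank. It was also lost at much the same size without each of the GD17.5 mice (1.13, 1.09 and 1.19), without a filter on low values (1.14, adjusted p = 0.0637) and with values scaled to a sum of 1000000 per library (1.19, adjusted p = 0.0579). Ppp1r3b divided the Day 0 mice in the same way, with 1.54, 5.86 and 5.05 FPKM, and so did Pygb, with 9.25, 22.3 and 24.5 FPKM. The low mouse in all 3 genes was mouse 1, the library with skeletal muscle transcripts. Ppp1r3g, another targeting subunit, did not follow them, with 7.86, 3.81 and 5.65 FPKM at Day 0 against 0.825, 1.12 and 1.25 FPKM at GD17.5. Without that mouse Ppp1r3c rose by 1.92 (adjusted p = 0.000391), Ppp1r3b by 0.96 and Gys1 by 0.51, all called. Whether muscle tissue in this sample bears on these values was not tested.

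**Figure D5:**
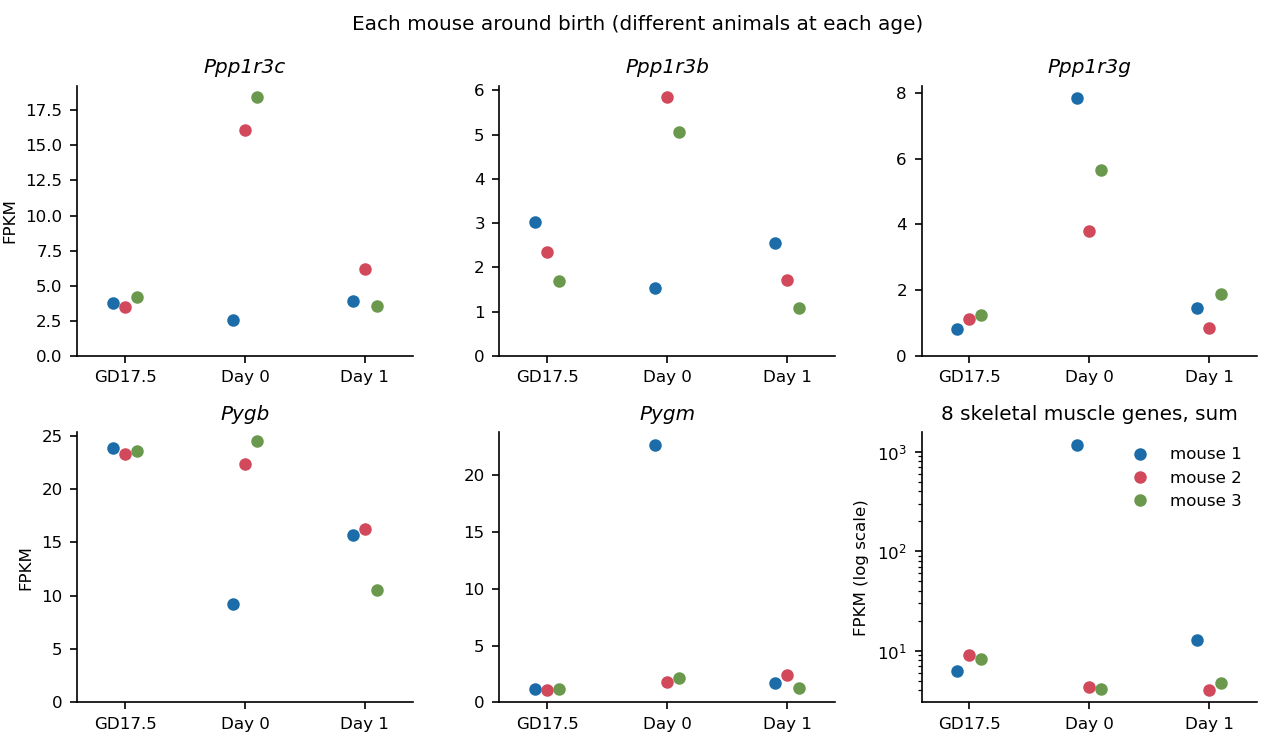
FPKM of 5 genes, and the sum of 8 skeletal muscle markers on a log axis, in each of the 3 mice at GD17.5, Day 0 and Day 1. Mice of different ages are different animals. At Day 0 mouse 1 (blue) is low in Ppp1r3c, Ppp1r3b and Pygb and high in Pygm (22.7 FPKM) and in the muscle markers (1176 FPKM).

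Around these genes, 8 of the 23 other pathway genes rose from GD17.5 to Day 0, 9 fell and 6 were not called. Over all genes 13.1% were higher and 41.4% lower. With the upper quartile 9 rose, 5 fell and 9 were not called (20% and 26.1% of all genes). Without Day 0 mouse 1, 8 rose and 8 fell (11.8% and 38.1%), and without the 5 libraries highest in pancreas transcripts 7 rose and 8 fell (10.5% and 35.5%). G6pc, the glucose 6-phosphatase that lets liver release free glucose, measured 0.0366, 0.0381 and 0.0451 FPKM at GD17.5 and 226, 42.4 and 59.8 FPKM at Day 0 (6.34, SE 0.42, adjusted p = 8.26e-13, and 5.63 without Day 0 mouse 1). Slc2a2, the glucose transporter of hepatocytes, rose by 1.33 and Ppp1r3g by 1.68, while Ppp1cb, a phosphatase 1 catalytic subunit, differed by -1.71 and Pask, a kinase that acts on glycogen synthase, by -0.67. Stbd1, which tethers glycogen to membranes, rose by 0.72. Without Day 0 mouse 1 these remained called, with Slc2a2 at 1.41, Ppp1r3g at 1.46, Stbd1 at 1.0004, Ppp1cb at -1.72 and Pask at -0.63. Pygm was called too (1.44), with 1.21, 1.12 and 1.22 FPKM at GD17.5 and 22.7, 1.82 and 2.12 FPKM at Day 0, and without the library with muscle transcripts the difference was 0.44 (adjusted p = 0.0306).

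Over the first day of suckling (Day 1 against Day 0) Gys2 rose and Gys1, Gbe1 and Pygl fell, with 31.6% of all genes called, 23.7% higher and 7.88% lower, and a median of 0.19. The shares higher and lower were 14.7% and 12%, with a median of 0.08, after scaling to the upper quartile. Gys2 rose by 0.78 (SE 0.23, adjusted p = 0.0106), 0.59 above that median. Gys1 fell by 0.81 on the log2 scale (-0.81, SE 0.16, adjusted p = 0.000334), the only one of the 4 calls that held without each mouse in turn. Gbe1 fell by 0.83 (-0.83, SE 0.28, adjusted p = 0.0256) and Pygl fell by 0.76 (-0.76, SE 0.23, adjusted p = 0.0139). Both calls were lost without Day 0 mouse 1, Day 0 mouse 2 or Day 1 mouse 3, and that of Gys2 without Day 1 mouse 1 (0.69). With each mouse left out in turn, Gbe1 lay between -1.03 and -0.63 and Pygl between -0.99 and -0.60. The Gbe1 call was also lost with values scaled to a sum of 1000000 per library (-0.80, adjusted p = 0.0632). Cell type markers moved over this step too, and their part was not tested. The erythroid sum was 1132, 1469 and 1663 FPKM in the Day 0 mice and 586, 656 and 532 FPKM in the Day 1 mice. The neutrophil and myeloid precursor sum was 3923, 3815 and 3422 FPKM, then 2299, 2890 and 2616 FPKM. The sum of 4 Kupffer cell markers was 58.7, 49.8 and 31.8 FPKM, then 102, 102 and 95.1 FPKM.

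The targeting subunits were close to the threshold, Ppp1r3c at -0.96 (adjusted p = 0.112) and Ppp1r3b at -0.79 (adjusted p = 0.0894). Without the first mouse of Day 0 and of Day 10, the libraries with muscle transcripts, they were called lower, at -1.74 (adjusted p = 0.00178) and -1.24 (adjusted p = 0.00326), as was Pygb at -0.71 (adjusted p = 0.0303), whereas Gbe1 (-0.67, adjusted p = 0.0969) and Pygl (-0.61, adjusted p = 0.0692) were not. Of the other pathway genes 1 rose and 5 fell, beside 23.7% of all genes higher and 7.88% lower. Gaa rose by 0.49, and was not called with the upper quartile (0.34), without Day 0 mouse 1 (0.51) or without the 5 libraries highest in pancreas transcripts (0.54). The genes that fell were Hk1 (-1.26), Ppp1r3g (-1.48), Pygm (-1.12), Stbd1 (-0.76) and Gsk3a, a kinase that inhibits glycogen synthase (-0.54). Without Day 0 mouse 1 Hk1 (-1.46), Ppp1r3g (-1.26), Stbd1 (-1.05) and Gsk3a (-0.59) were still called and Pygm was not (-0.12). Hk1 was at 18.8, 18.03 and 14.3 FPKM at Day 1, below all Day 0 mice with 31.4, 39.4 and 59.3 FPKM.

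Across weaning (Day 25 against Day 20) 1 of the 9 genes was called, with 7.19% of all genes called, 3.94% higher and 3.26% lower. Ugp2 fell by 1.11 on the log2 scale (-1.11, SE 0.26, adjusted p = 0.00529), and all 3 mice of Day 25 were below those of Day 20. The call was lost without Day 25 mouse 2, its lowest mouse (-0.93, adjusted p = 0.0541). Gys2 came next at -0.61 (SE 0.23, adjusted p = 0.105), again with all Day 25 mice below the Day 20 mice, and Pygb was at -0.56 (adjusted p = 0.256). None of the 23 other pathway genes was called by limma in this comparison. Stbd1 was called when Day 0 mouse 1 was left out of the fit (-0.53, adjusted p = 0.0153). Exact permutation of 3 against 3 mice cannot give a p below 0.1, so single genes were not tested in that way.

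The genes most like each member were named by Pearson's r over the 12 age means among all genes tested. Gyg had Cyba, Arhgdib and Sh3bgrl3 at 0.995 and above, Gys1 had Plp2, Itprip and Slc6a4, and Pygb had Fmnl3, Efemp2 and Paqr4. Gys2 had Mxra8 at 0.99 and Zfp784 at 0.986, Gbe1 had Ablim3 at 0.966, with Qdpr and Gm2a, and Ugp2 had Il18 at 0.94, with Atg4c and Cdh13. Pygl had Cyp2c70 at 0.925 and then a fellow member, Ppp1r3b at 0.88, followed by Etnk2. Ppp1r3b had Ildr2, Arhgef26 and Shroom1 at 0.89 to 0.90, and Ppp1r3c had Upp1 at 0.84, with Dak and Cpn1, the loosest match of the 9. The highest r was larger for Gyg, Gys1 and Pygb than for the targeting subunits. Spread between mice of the same age differed too. The median coefficient of variation was 8.38% for Gyg, 16.2% for Gys1 and 25.9% for Pygb, against 35.3% for Ppp1r3b and 36.9% for Ppp1r3c. The part of this spread in the r values was not tested.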

How the data were processed

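Livers of 36 mice at 12 ages (3 per age, random picks from several litters) were sequenced from poly-A RNA with a kit that does not mark strand. The authors mapped reads with TopHat 1.2.0 to NCBI37/mm9, estimated abundance with Cufflinks 1.0.3 and deposited FPKM values per gene symbol, without counts. FPKM are scaled to each library's mapped reads, and no further scaling between libraries is given in the sources used here.

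The 11149 genes (of 21889) whose age mean reached 1 FPKM at some age were tested on log2(FPKM + 1). The fit used limma 3.58.1 (R 4.3.3) on all 36 mice, with a mean for each age, a variance trend and no covariates, and Benjamini-Hochberg adjustment over all genes (for the comparisons with Day 60 also over the 11 comparisons together). The fit was tested on simulated data. Alternatives were a pseudocount of 0.1, no filter or a filter at 5 FPKM, a common upper quartile, a sum of 1000000 (TPM), no variance trend, a replicate block, adjustment within each comparison, Dunnett's comparison and each mouse left out. Omitting the 2 libraries with muscle transcripts, the 5 with over 1000 FPKM of exocrine pancreas markers, or 4 libraries with Pnlip, a lipase of exocrine pancreas, of at least 1 FPKM, was chosen after seeing the data. The members and lists were chosen with earlier results of these data known. The named genes are all members, the 3 genes most like each, and the pathway genes with the largest change among those called in each list. Some genes of these lists are not reported here, and counts and sums are without them.

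Depth was estimated from the steps of low FPKM values in 43 genes of known length at about 80.9 fragments per library, in units of 1000000, with relative depth between 0.884 and 1.17. Gene positions came from GENCODE M1 (NCBIM37), the annotation version the authors used, and promoters from RefSeq (GRCm38.p6). Columns were mapped to mice by the sample labels.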

Additional observations from a re-analysis of the deposited data

How the results depend on the processing

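Of the 5 counts of members called, only those of single steps moved beyond 1.5 times. Leaving out each mouse in turn gave 1 to 4 members for GD17.5 to Day 0 (3 with all mice), 2 to 5 for Day 0 to Day 1 (4) and 0 to 1 for Day 20 to Day 25 (1), and the upper quartile gave 5 for GD17.5 to Day 0. The counts for Day 60 (8 to 9, with 8 by Dunnett's comparison) and for suckling (7 to 8) were more even. Differences that changed sign were not called. Against Day 60, over the 9 members and 11 ages, 10 changed sign with the upper quartile, 3 with a sum of 1000000 and 8 without the 5 libraries highest in pancreas transcripts. Among them, Ugp2 at Day 5 went from 0.40 to -0.22 and Ppp1r3c at Day 3 from 0.40 to -0.16 with the upper quartile, and Ppp1r3c at Day 0 from 0.22 to -0.40 without those libraries. With the upper quartile Gys2 at GD17.5 minus Day 60 was -0.42 (0.16 as deposited) and Gyg from GD17.5 to Day 0 was 0.16 (-0.09), and with a sum of 1000000 Gyg from Day 0 to Day 1 was 0.026 (-0.07). With each mouse left out, Gys2 at GD17.5 minus Day 60 ranged from -0.015 to 0.29, Ppp1r3c in suckling from -0.14 to 0.073, Gyg from Day 0 to Day 1 from -0.14 to 0.013, Gyg from Day 20 to Day 25 from -0.17 to 0.042 and Ppp1r3b from Day 20 to Day 25 from -0.17 to 0.30. The cause was not tested.

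Replicate numbers name different animals. Deviations of mice with the same number correlated between -0.68 and 0.83 (median 0.126 over 198 pairs of mice, -0.05 for different numbers), and 19 of 36 mice correlated best with their own number. The replicate block gave 9083 genes for suckling in place of 8886, 6377 for GD17.5 to Day 0 (6083), 4086 for Day 0 to Day 1 (3519) and 942 for Day 20 to Day 25 (802). Among members it changed 1 call, Pygl in suckling (-0.23, adjusted p = 0.0420). Without the 4 libraries with Pnlip, none of them in that comparison, Ppp1r3c from GD17.5 to Day 0 kept its difference of 1.14 and lost its call (adjusted p = 0.0505). Without the 5 with over 1000 FPKM of exocrine pancreas markers, which include Day 0 mouse 3, it was 0.70 (adjusted p = 0.268). Depth limited Gys1 most, and the other 8 genes had at least 372 fragments behind their lowest value.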
